A study of Homo sapiens with 12 samples.

Results

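Genes of the insulin-like growth factor (IGF) axis were examined in 3 established human prostate cell lines. They were the receptors IGF1R, INSR and IGF2R, the ligand IGF2 and the binding proteins IGFBP2 to IGFBP7, taken by symbol from the deposited expression table. All 10 were found among its 58302 genes. IGF1R was 19.3-fold lower in PC3 than in BPH-1, while INSR was 2.67-fold higher. IGFBP4 was 18-fold higher in PC3 than in BPH-1. IGFBP7 was abundant in BPH-1, held 2 to 18 reads a library in DU145 and had 0 reads in every PC3 library.

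IGF1 and IGF2 are peptide growth factors related to insulin. They act through IGF1R, a receptor tyrosine kinase that forms hybrids with the insulin receptor INSR and signals through IRS and SHC adaptors to the PI3K, AKT and mTOR branch and to the RAS and MAPK branch. IGF2R, which is also the receptor for mannose 6-phosphate, has no kinase domain. It carries IGF2 to lysosomes for degradation and sorts lysosomal enzymes. Secreted IGF-binding proteins hold the ligands away from the receptors and are cut by proteases that release them. In the prostate, both stromal and epithelial cells make components of this system.

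BPH-1 is a line of benign prostate epithelial cells, and DU145 and PC3 are lines of prostate cancer (PCa). The 4 libraries of each line came from untreated cells with wild-type genotype in the labels, grown in Dulbecco's modified Eagle's medium with fetal bovine serum, penicillin and streptomycin, and total RNA was sequenced. Each line is 1 line and not a group of donors, so a difference between lines cannot be told apart from a difference between benign and malignant cells. Nothing in the labels says that replicates were separate cultures, and p-values then measure the spread between these libraries, which may be technical. In bulk libraries, fewer cells of a type and less RNA per cell cannot be told apart.

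The libraries held between 12950662 and 16309566 reads (median 15340995), recovered from the steps between low values. Values are FPKM, the reads on a gene divided by its length and by the depth of the library. KRT8 and KRT18, keratins of simple epithelia, were present in all 12 libraries, with 14.7 FPKM or more for KRT8 and 26.8 FPKM or more for KRT18. EPCAM, an epithelial surface protein, was between 57.7 and 63.2 FPKM in BPH-1 and between 6.92 and 11.1 FPKM in PC3, but between 0.166 and 0.573 FPKM in DU145. CDH1, the epithelial cadherin, was between 16.3 and 44.6 FPKM in BPH-1, 0.0851 and 0.297 FPKM in DU145 and 0.427 and 1.42 FPKM in PC3. DU145 is generally described as expressing both genes, so the libraries labelled DU145 went against their label on these markers. The identity of their RNA was not tested, and DU145 in the results stands for the libraries so labelled. The basal keratin KRT5 was high in BPH-1 only, at 120 FPKM or more, against 0.499 FPKM or less elsewhere. The luminal prostate marker KLK3 was 0 in all 12 libraries.

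The DU145 libraries stood apart from each other. Over all genes, replicates 1 and 3 differed from each other, as did 2 and 4, by a chi-square per gene of 23.7 to 37.2, whereas the other 4 pairs differed by 105 to 216. Pairs of BPH-1 libraries differed by 23.2 to 49.3. In PC3, the 3 pairs with replicate 4 differed by 57.9 to 86.6 and the 3 others by 17.4 to 36.0. The leukocyte genes LYZ and PTPRC split the same libraries another way. LYZ was 7.76 and 8.63 FPKM in DU145 replicates 1 and 2, which is the range of the 4 BPH-1 libraries (7.61 to 10.1 FPKM), and it was 0 in replicates 3 and 4. Markers other than leukocyte genes split this way too, at low levels. KRT5 was 0.342 and 0.499 FPKM in replicates 1 and 2 against 0.024 and 0 FPKM in 3 and 4. KRT14 was 0.275 and 0.442 against 0.0222 and 0 FPKM, and PECAM1 was 0.198 and 0.224 FPKM against 0 in both. The 5 immune markers summed to 9.58 to 12.5 FPKM in BPH-1, to 0 to 10.3 FPKM in DU145 and to 0.0796 to 0.23 FPKM in PC3, with CD3E at 0 in all lines. The stromal gene DCN was 0.373 and 0.214 FPKM in DU145 replicates 3 and 4 and 0 in the other 10 libraries. Within DU145, COL1A2 and LUM were also above 0 only in replicates 3 and 4. The stromal markers COL1A1, COL3A1, PDGFRB, DES and MYH11 did not split the DU145 libraries in this way. The 8 stromal markers summed to 1.98 to 3.73 FPKM in BPH-1, 0.666 to 2.12 FPKM in DU145 and 3.17 to 4.13 FPKM in PC3, and the 4 endothelial markers to 0.231 to 0.623, 0.064 to 0.35 and 1.21 to 2.31 FPKM. The part of these splits in the results was not tested. Differences of the 10 genes between DU145 and BPH-1 that were tested are given without pairs of DU145 libraries. Folds of other reported genes called in this comparison are given where leaving out a pair moved them by over 1.5 times.

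**Figure D1:**
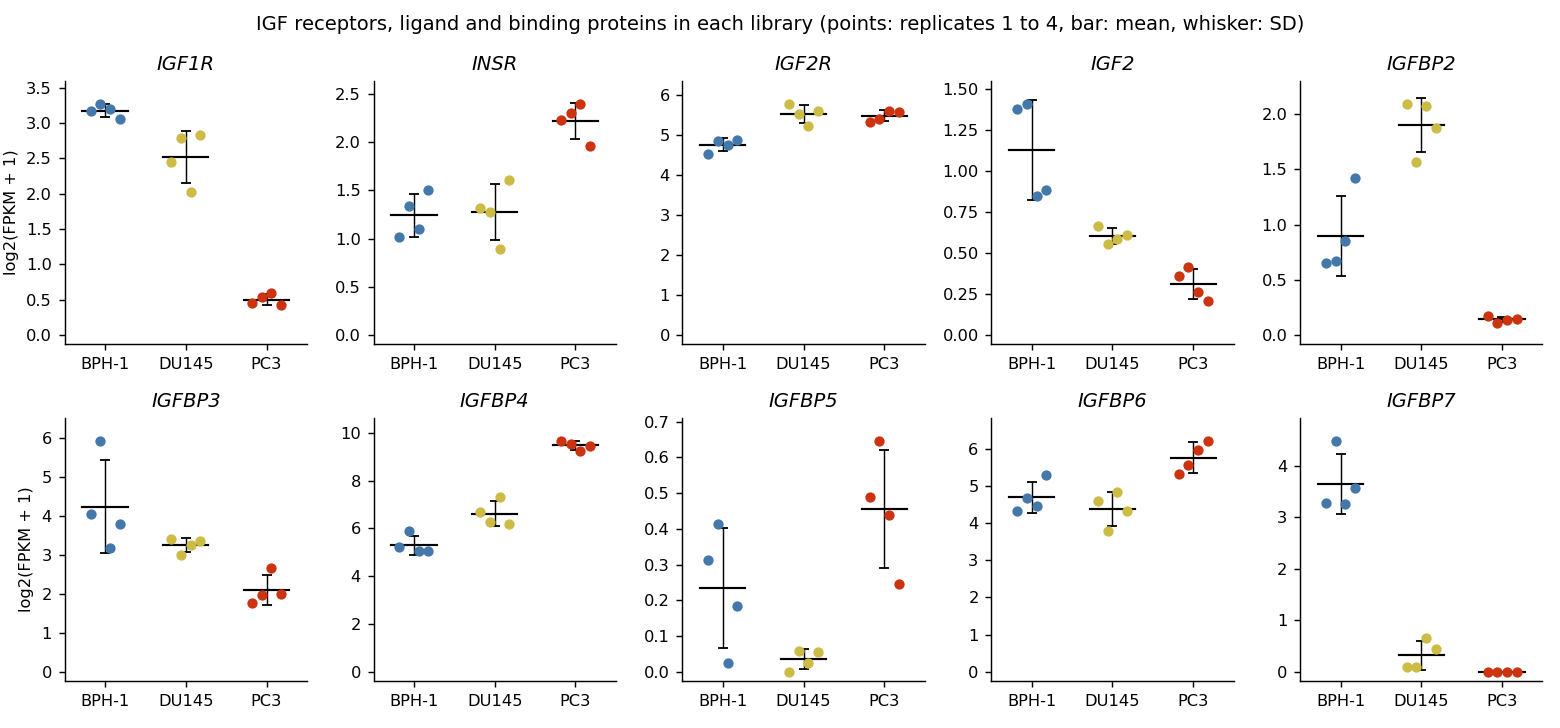
Levels of the 10 genes as log2(FPKM + 1) in each of the 12 libraries, with 4 points per line for replicates 1 to 4, a bar at the mean and whiskers of 1 SD. IGF1R, IGFBP4 and IGFBP7 separate the lines most, and BPH-1 replicate 2 stands above the other BPH-1 libraries for IGFBP3 (59.6 FPKM) and IGFBP4 (57.8 FPKM).

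The receptors IGF1R and INSR, which are close relatives, differed in opposite directions between PC3 and the other lines. IGF1R (ENSG00000140443) lies on the plus strand at chr15:98648971-98964530 (GRCh38, as in the deposited table). Its FPKM was 8.03, 8.64, 8.22 and 7.30 in BPH-1 replicates 1 to 4. In DU145 it was 4.45, 5.92, 3.07 and 6.10 FPKM. PC3 had 0.364, 0.447, 0.515 and 0.345 FPKM, from 110 to 176 reads a library. The 3 lines did not overlap, with BPH-1 the highest and PC3 the lowest. PC3 was lower than BPH-1 (log2 fold change of FPKM + 1 of -2.67, SE 0.11, limma adjusted p = 7.7e-08) and lower than DU145 by 11.7-fold (-2.02, SE 0.19, limma adjusted p = 3.33e-05). DU145 was 1.65-fold lower than BPH-1 (-0.65, SE 0.20, limma adjusted p = 0.0157). This last difference depended on which DU145 libraries entered: it was -0.37 without replicates 1 and 3 (limma adjusted p = 0.0195) and -0.94 without replicates 2 and 4 (limma adjusted p = 0.00102). It was -0.75 without replicates 1 and 2 and -0.56 without replicates 3 and 4. It was -0.40 and no longer called with upper-quartile scaling (limma adjusted p = 0.0804), and -1.20 with the trend of each library against gene GC content divided out (limma adjusted p = 0.00305).

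INSR (ENSG00000171105) lies on the minus strand at chr19:7112255-7294034. Its FPKM was 1.02, 1.54, 1.14 and 1.84 in BPH-1 and 1.49, 1.43, 0.857 and 2.06 in DU145. PC3 had 3.70, 3.94, 4.26 and 2.89 FPKM. Every PC3 library was above every library of the other lines, which overlapped each other. PC3 was higher than BPH-1 (log2 fold change 0.98, SE 0.15, limma adjusted p = 0.000298) and 2.54-fold higher than DU145 (0.95, SE 0.19, limma adjusted p = 0.00254). DU145 and BPH-1 did not differ detectably, with a 95% interval of the log2 difference from -0.37 to 0.43 (limma adjusted p = 0.881), and its sign depended on the processing. Without pairs of DU145 libraries the difference lay between -0.14 and 0.20.

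The ratio of IGF1R to INSR, both per length, put the pair on 1 scale. It was between 3.96 and 7.84 in BPH-1 (6.15 ± 1.73, SD, n = 4) and between 2.97 and 4.14 in DU145 (3.42 ± 0.561, SD, n = 4). In PC3 it was between 0.0982 and 0.121 (0.113 ± 0.0103, SD, n = 4), so INSR exceeded IGF1R by 8.92-fold there. Dividing by merged exons instead of the authors' summed exon lengths gave 9.16 ± 2.60 in BPH-1, 5.09 ± 0.834 in DU145 and 0.168 ± 0.0154 in PC3, with the same order of the lines.

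**Figure D2:**
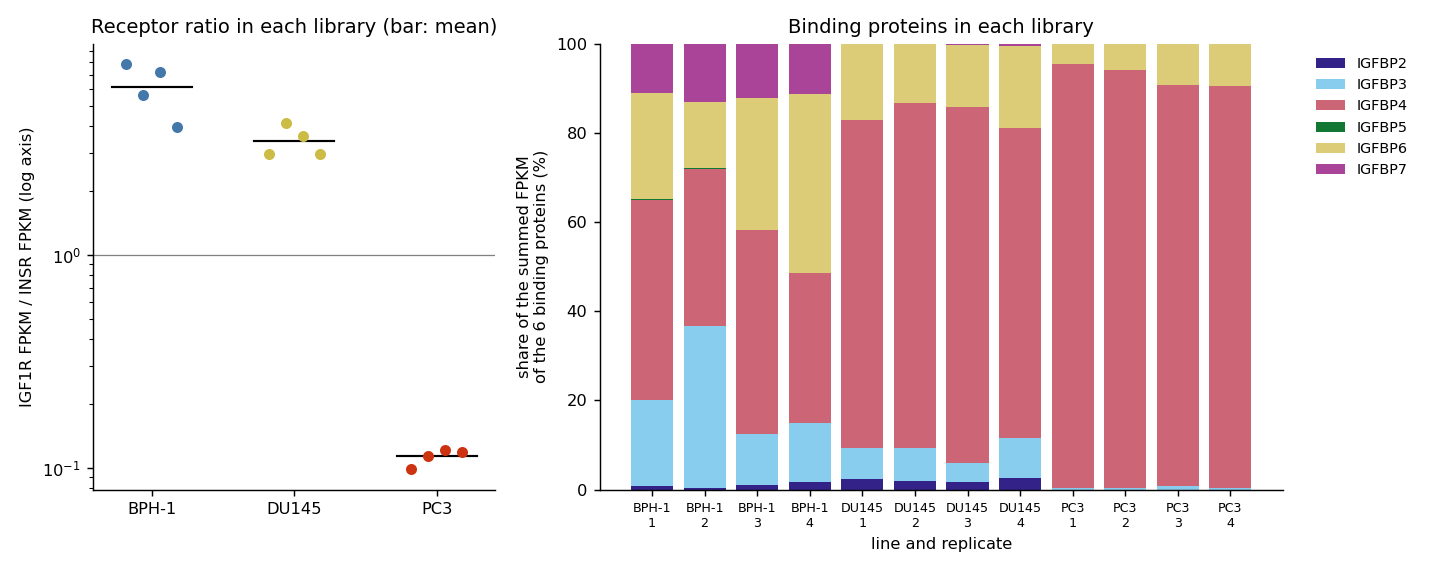
Left, the ratio of IGF1R to INSR FPKM in each library on a log axis, with a bar at the line's mean and a grey line where the receptors are equal; PC3 lies at 0.0982 to 0.121 and the other lines at 2.97 or more. Right, the share of each binding protein in the summed FPKM of IGFBP2 to IGFBP7 in each library, where IGFBP4 takes 89.9% to 95.1% in PC3.

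The upstream sequences of IGF1R and INSR are shown because these related receptors moved apart, and that of IGFBP4 because it had the widest range of line means among the 10 genes. RefSeq promoter entries on GRCh38.p14 matched 8 of the 10 genes. The 250 bases before each RefSeq start are written on the gene's strand, 5′ to 3′, with the GC box (GGGCGG or CCGCCC, either strand, overlapping matches counted) in capitals. They lie at chr15:98648289-98648538 on the plus strand for IGF1R, chr19:7294415-7294664 on the minus strand for INSR and chr17:40443200-40443449 on the plus strand for IGFBP4.
IGF1R: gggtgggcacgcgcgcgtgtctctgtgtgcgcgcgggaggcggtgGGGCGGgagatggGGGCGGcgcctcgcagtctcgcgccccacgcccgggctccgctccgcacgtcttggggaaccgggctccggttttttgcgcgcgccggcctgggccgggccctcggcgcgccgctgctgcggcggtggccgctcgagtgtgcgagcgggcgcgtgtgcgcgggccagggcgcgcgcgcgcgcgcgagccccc
INSR: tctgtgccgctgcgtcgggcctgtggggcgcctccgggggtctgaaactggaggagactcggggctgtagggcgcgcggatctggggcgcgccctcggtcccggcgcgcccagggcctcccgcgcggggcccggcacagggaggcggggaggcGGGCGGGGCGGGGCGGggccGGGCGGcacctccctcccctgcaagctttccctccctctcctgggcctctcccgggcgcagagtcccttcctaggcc
IGFBP4: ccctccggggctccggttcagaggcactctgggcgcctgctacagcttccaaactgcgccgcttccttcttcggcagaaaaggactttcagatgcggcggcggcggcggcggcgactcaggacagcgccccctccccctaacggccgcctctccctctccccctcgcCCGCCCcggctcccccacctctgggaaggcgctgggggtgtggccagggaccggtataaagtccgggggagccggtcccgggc
IGF1R held 2 GC boxes, INSR 4 and IGFBP4 1, and 42.6% of the 35116 RefSeq promoter windows of the same length held at least 1. IGF1R stood out for its CG pairs: it had 48, and 0.262% of all windows had as many, while INSR had 28 (15.9% of windows) and IGFBP4 24 (23.7%), against a median of 11. These are descriptions of the sequence, and neither methylation nor binding was measured.

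IGF2R (ENSG00000197081), the clearing receptor for IGF2, lies at chr6:159969099-160113507 on the plus strand and was the most abundant of the receptors in all lines, on the merged-exon scale too. Its FPKM was 22.2, 28.1, 26.3 and 28.6 in BPH-1. In DU145 it was 54.1, 45.2, 36.9 and 48.2, and in PC3 39.4, 41.9, 47.9 and 47.4. All libraries of both PCa lines were above all BPH-1 libraries, and the PCa lines overlapped each other. IGF2R was 1.68-fold higher in PC3 than in BPH-1 (log2 fold change 0.73, SE 0.12, limma adjusted p = 0.000392) and 1.75-fold higher in DU145 (0.78, SE 0.16, limma adjusted p = 0.00217). The DU145 difference was between 0.67 and 0.89 without pairs of DU145 libraries. With the GC trend divided out it was 0.20 and not called (limma adjusted p = 0.382), and the PC3 difference was 0.28 (limma adjusted p = 0.0461). The PCa lines did not differ detectably, with an interval of the log2 difference from -0.39 to 0.28 (limma adjusted p = 0.794).

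IGF2 (ENSG00000167244), the only ligand of the 10 genes, was low in all 3 lines. It lies at chr11:2129112-2141238 on the minus strand, an imprinted locus, and shares exons with INS-IGF2, which was listed at 0 in every library, and with the antisense gene IGF2-AS. Its FPKM was 1.60, 1.65, 0.795 and 0.843 in BPH-1 and 0.587, 0.465, 0.499 and 0.528 in DU145. PC3 had 0.281, 0.332, 0.197 and 0.156, from 20 to 45 reads. The lines did not overlap, in the order BPH-1, DU145, PC3, and within BPH-1 replicates 1 and 2 were above 3 and 4. PC3 was 5.05-fold lower than BPH-1 (log2 fold change of FPKM + 1 of -0.82, SE 0.14, limma adjusted p = 0.000595). DU145 was 2.35-fold lower than BPH-1 (-0.52, SE 0.14, limma adjusted p = 0.00948), a call that was lost without DU145 replicates 1 and 2 (limma adjusted p = 0.0557) and without replicates 3 and 4 (limma adjusted p = 0.0599), with differences of -0.55 to -0.50 over the 4 pairs. With the GC trend divided out it was -0.88 (limma adjusted p = 0.00114). PC3 was 2.15-fold lower than DU145 (-0.29, SE 0.06, limma adjusted p = 0.00464). This call was lost in 1 fit over all 3 lines (limma adjusted p = 0.0674).

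IGFBP4 (ENSG00000141753), which inhibits IGF action until the metalloprotease PAPPA cleaves it, had the widest range of line means. It lies at chr17:40443461-40457731 on the plus strand. Its FPKM was 35.8, 57.8, 32.3 and 32.0 in BPH-1 and 100.4, 75.0, 158 and 71.3 in DU145. PC3 had 809, 736, 602 and 700.2 FPKM, from 18357 to 23063 reads a library. The lines did not overlap, and DU145 replicates 1 and 3 were above 2 and 4. PC3 was 18-fold higher than BPH-1 (log2 fold change 4.17, SE 0.19, limma adjusted p = 1.59e-07) and 7.03-fold higher than DU145 (2.87, SE 0.25, limma adjusted p = 1.94e-05). DU145 was 2.56-fold higher than BPH-1 (1.30, SE 0.28, limma adjusted p = 0.00264). This difference was 0.92 without DU145 replicates 1 and 3, 1.69 without 2 and 4, 1.45 without 1 and 2 and 1.16 without 3 and 4. The gene's GC content of 62.5% was above that of 92.1% of the genes tested. With the GC trend divided out, PC3 against BPH-1 was 3.32 (limma adjusted p = 1.91e-06), while DU145 against BPH-1 was 0.43 and not called (limma adjusted p = 0.07).

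IGFBP7 (ENSG00000163453) binds IGFs weakly and insulin more strongly than the other binding proteins do. It lies on the minus strand at chr4:57030773-57110385, where its exons overlap those of POLR2B on the other strand, and whether the authors counted by strand is not given in the sources used here. Its FPKM was 8.67, 21.4, 8.58 and 10.9 in BPH-1, from 274 to 672 reads. In DU145 it was 0.0600, 0.0596, 0.567 and 0.362 FPKM, from 2, 2, 18 and 10 reads. In PC3 it was 0 in all 4 libraries, where 3 reads in a library, the limit that a count of 0 allows, are worth 0.105 to 0.113 FPKM. BPH-1 was above both other lines in every library, while POLR2B had a mean of 16.3 FPKM in BPH-1, 8.02 FPKM in DU145 and 23.3 FPKM in PC3. IGFBP7 was at least 114-fold lower in PC3 than in BPH-1 (log2 fold change of FPKM + 1 of -3.65, SE 0.25, limma adjusted p = 2.04e-06) and 47.2-fold lower in DU145 (-3.33, SE 0.28, limma adjusted p = 7.57e-06). The DU145 libraries with 18 and 10 reads were replicates 3 and 4. Without them the DU145 level was under that of 3 reads and the log2 difference was -3.56. Without replicates 1 and 2 the log2 difference was -3.10 and the fold 26.7, without replicate 3 alone the fold was 77.1, and the log2 difference was -3.38 without replicates 1 and 3 and -3.28 without 2 and 4. The gene did not pass the filter on low values for PC3 against DU145 and was not tested there.

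IGFBP3 (ENSG00000146674), the main carrier of IGFs in blood, lies at chr7:45912245-45921874 on the minus strand. Its FPKM was 15.6, 59.6, 8.0 and 12.7 in BPH-1, 9.58, 7.02, 8.55 and 9.18 in DU145 and 2.41, 2.94, 5.28 and 2.95 in PC3. PC3 was below all other libraries, and BPH-1 and DU145 overlapped. PC3 was lower than BPH-1 (log2 fold change -2.14, SE 0.51, limma adjusted p = 0.00427) and lower than DU145 by 2.53-fold (-1.16, SE 0.21, limma adjusted p = 0.00149). The size of the first difference rested on BPH-1 replicate 2, since the ratio of the means was 7.07 with it and 3.57 without it (log2 fold change -1.57, limma adjusted p = 0.00109). BPH-1 replicate 2 was the highest BPH-1 library for 6 of the 10 genes, IGFBP3, IGFBP4, IGFBP5 and IGFBP7 among them, and had the highest sum in BPH-1 of every marker list but the basal one: epithelial (208 FPKM), luminal prostate (6.27 FPKM), stromal (3.73 FPKM), endothelial (0.623 FPKM) and immune (12.5 FPKM). Their part in this was not tested. DU145 against BPH-1 was not called (interval from -2.06 to 0.10, limma adjusted p = 0.103). It was called without BPH-1 replicate 3 (-1.33, limma adjusted p = 0.0339) and with the GC trend divided out (-1.62, limma adjusted p = 0.0177). Without pairs of DU145 libraries it lay between -1.06 and -0.90.

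IGFBP2 (ENSG00000115457), a binding protein of high affinity for IGF2, lies at chr2:216632828-216664436 on the plus strand, next to IGFBP5 on the minus strand. It was higher in DU145 and lower in PC3 than in BPH-1. Its FPKM was 0.567, 0.590, 0.800 and 1.68 in BPH-1 and 3.26, 1.97, 3.21 and 2.68 in DU145. PC3 had 0.126, 0.0797, 0.0984 and 0.105 FPKM, from 8 to 12 reads a library. The lines did not overlap. DU145 was 3.06-fold higher than BPH-1 (log2 fold change of FPKM + 1 of 1.01, SE 0.20, limma adjusted p = 0.00179), and PC3 was 8.87-fold lower (-0.76, SE 0.15, limma adjusted p = 0.00165). PC3 was 27.1-fold lower than DU145 (-1.76, SE 0.13, limma adjusted p = 8.45e-06). The DU145 difference lay between 0.83 (without DU145 replicates 1 and 3) and 1.19 (without 2 and 4). It was 0.50 and not called with the GC trend divided out (limma adjusted p = 0.0519).

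IGFBP6 (ENSG00000167779), which prefers IGF2 over IGF1, lies at chr12:53097436-53102345 on the plus strand. Its FPKM was 19.2, 24.5, 20.8 and 38.3 in BPH-1, 23.3, 12.8, 27.5 and 18.9 in DU145 and 38.8, 45.8, 61.9 and 73.1 in PC3. PC3 was above all other libraries, by a narrow gap to BPH-1 replicate 4. PC3 was 2.14-fold higher than BPH-1 (log2 fold change 1.07, SE 0.25, limma adjusted p = 0.00378) and 2.66-fold higher than DU145 (1.38, SE 0.27, limma adjusted p = 0.00231). Its GC content was 63.0%, above that of 93.4% of the genes tested, and with the GC trend divided out PC3 against BPH-1 was 0.21 and not called (limma adjusted p = 0.323). DU145 and BPH-1 overlapped (interval from -0.91 to 0.30, limma adjusted p = 0.349), and the difference lay between -0.64 (without DU145 replicates 1 and 3) and 0.03 (without 2 and 4). With the GC trend divided out, DU145 was lower (-1.16, limma adjusted p = 0.000637).

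IGFBP5 (ENSG00000115461), at chr2:216672105-216695525, was close to the limit of detection. Its FPKM was 0.243, 0.333, 0.0172 and 0.137 in BPH-1, from 2 to 38 reads, and 0, 0.0410, 0.0173 and 0.0398 in DU145, from 0 to 5 reads. In PC3 it was 0.402, 0.565, 0.356 and 0.186 FPKM, from 18 to 58 reads. PC3 was above DU145 in every library (log2 fold change of FPKM + 1 of 0.42, SE 0.08, limma adjusted p = 0.00174) and overlapped BPH-1 (0.22, interval from -0.01 to 0.45, limma adjusted p = 0.08). The latter was called without BPH-1 replicate 2 (0.28, limma adjusted p = 0.0381) and without PC3 replicate 4 (0.29, limma adjusted p = 0.0276). DU145 against BPH-1 did not pass the filter and was not tested.

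The makeup of the binding proteins differed between the lines as a whole. The 6 binding proteins summed to 103 ± 42.2 FPKM in BPH-1, 133 ± 46.6 FPKM in DU145 and 770 ± 75.4 FPKM in PC3 (SD, n = 4 each). IGFBP4 took 39.8% ± 6.35 of this sum in BPH-1, 75.1% ± 4.51 in DU145 and 92.2% ± 2.58 in PC3 (SD, n = 4 each). On the merged-exon scale its shares were 25.6%, 59.3% and 85.0%. BPH-1 was the mixed line, with 27.1% ± 10.5 from IGFBP6, 20.1% ± 11.4 from IGFBP3 and 11.8% ± 0.957 from IGFBP7 (SD, n = 4). IGFBP6 was the second binding protein of DU145 (15.6% ± 2.48) and of PC3 (7.27% ± 2.45). IGFBP2 and IGFBP5 took 2.61% or less of the sum in every library.

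Among the 10 genes, ordered by mean FPKM, BPH-1 ran IGFBP4, IGF2R, IGFBP6, IGFBP3, IGFBP7, IGF1R, INSR, IGF2, IGFBP2 and IGFBP5. Neighbours from IGF2R to IGF1R and from INSR to IGFBP2 overlapped between libraries, and on the merged-exon scale IGFBP6 and IGFBP3 came first. In DU145 the order was IGFBP4, IGF2R, IGFBP6, IGFBP3, IGF1R, IGFBP2, INSR, IGF2, IGFBP7 and IGFBP5, and IGF1R, IGFBP2 and INSR overlapped with their neighbours, as did IGF2 and IGFBP7. The merged-exon scale put IGFBP6 before IGF2R there. In PC3 it was IGFBP4, IGFBP6, IGF2R, INSR, IGFBP3, IGF1R, IGFBP5, IGF2, IGFBP2 and IGFBP7, and the overlapping neighbours were IGFBP6 and IGF2R, INSR and IGFBP3, and IGF1R to IGF2. The merged-exon scale put IGFBP3 before INSR in PC3.

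The study sequenced these lines to find genes expressed differently in PCa cells and benign cells. In PC3 against BPH-1, 9 of the 10 genes passed the test (4 higher, 5 lower), where 67.6% of all 16411 genes tested passed it (27.1% higher, 40.4% lower). The same 9 genes did not overlap between these lines, as did not 64.4% of all genes. In DU145 against BPH-1, 6 of 9 genes tested passed (3 higher, 3 lower) and did not overlap, against 62.7% of 17017 genes called (30.3% higher, 32.4% lower) and 59.5% not overlapping. With the GC trend divided out 5 passed, and all 5 were lower in DU145 (IGF1R, IGF2, IGFBP3, IGFBP6 and IGFBP7). Over all 17017 genes, 10547 then passed. Of these calls 40.2% were higher in DU145, against 48.4% of the calls without the correction. In PC3 against DU145, 8 of 9 genes passed (4 higher, 4 lower) and did not overlap, against 48.3% of 16422 genes called (20.0% higher, 28.4% lower) and 46.5% not overlapping. The median log2 difference of the genes tested was -0.27, -0.30 and -0.05 in the 3 comparisons, beside -0.13, -0.03 and -0.05 over all genes. The comparisons with BPH-1 share its libraries, so their calls are not independent. Without PC3 replicate 4, 10 genes passed in PC3 against BPH-1 and 8 in PC3 against DU145. Of all genes, 11321 of 16878 and 7992 of 16915 then passed.

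**Figure D3:**
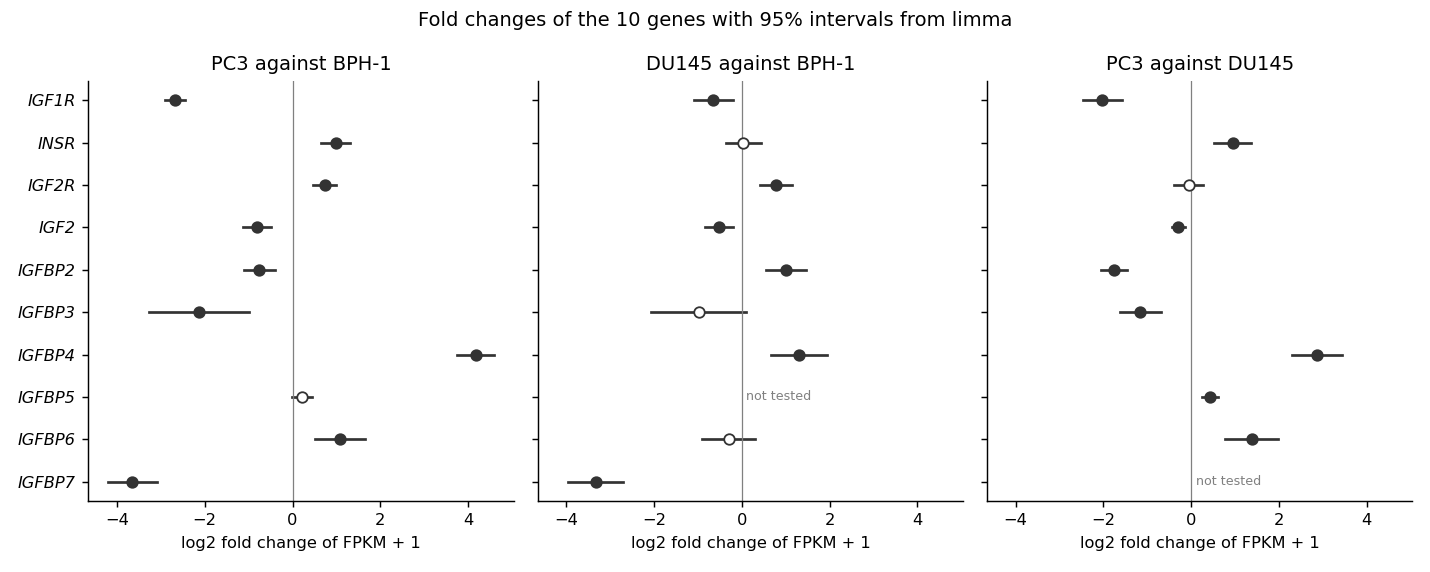
Log2 fold change of FPKM + 1 for each of the 10 genes in the 3 comparisons, with 95% intervals from limma, filled where the adjusted p was under 0.05 and open where it was not. IGFBP4 is the farthest to the right in all 3 panels (4.17, 1.30 and 2.87), and IGFBP7 the farthest to the left in both comparisons with BPH-1 (-3.65 and -3.33).

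For the 3 genes with the widest range of line means, the protein-coding genes of most similar pattern were sought among 10499 genes, by the root mean square difference of centred log2(FPKM + 1) over the 12 libraries, which share 3 lines. For IGFBP4 these were RCN3 (difference 0.32), a calcium-binding protein of the endoplasmic reticulum with mean FPKM of 0.353, 2.54 and 24.2 in BPH-1, DU145 and PC3, and the transcriptional repressor ZNF503 (0.38). For IGFBP7 one was the gelatinase MMP2 (0.22), with mean FPKM of 11.9, 0.116 and 0.00767. For IGF1R one was GRK3 (0.22), a kinase of G protein-coupled receptors, at 6.14, 3.12 and 0 FPKM.

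Another 65 genes of the pathway were grouped by role. In PC3 against BPH-1, 46 of 57 tested passed (16 higher, 30 lower), with a median log2 difference of -0.46 beside -0.13 over all genes. In DU145 against BPH-1, 43 of 59 passed (17 higher, 26 lower; median -0.58 beside -0.03), and in PC3 against DU145, 31 of 58 passed (14 higher, 17 lower; median -0.12 beside -0.05). Of all genes tested, 67.6%, 62.7% and 48.3% passed in these 3 comparisons. The split of calls depended on the scaling. Against BPH-1, PC3 had 11 higher and 35 lower with libraries brought to the same sum, 20 and 27 with upper-quartile scaling and 8 and 36 with the GC trend divided out, and DU145 had 13 and 30, 19 and 21, and 11 and 29. In PC3 against DU145, 38 genes passed without DU145 replicates 1 and 3, 35 without 2 and 4, 21 without 1 and 2 and 20 without 3 and 4. The calls over all genes moved too, from 7937 of 16422. They were 9040 of 17267, 9367 of 17154, 6446 of 17149 and 7060 of 17246 in these fits. Without PC3 replicate 4, 44 passed in PC3 against BPH-1 and 29 in PC3 against DU145. Of all genes, 11321 of 16878 and 7992 of 16915 then passed.

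IGF1, INS, IGFBP1, IGFALS, INSRR and IRS4 had at most 3 reads in every library. The one other carrier gene, IGFBPL1, a relative of the binding proteins, was found in DU145 at 40.1, 39.2, 47.9 and 31.5 FPKM. BPH-1 had 0, 0.420, 0 and 0.117 FPKM and PC3 0, 0, 0.132 and 0 FPKM, so DU145 did not overlap either line. DU145 was higher than BPH-1 (log2 fold change of FPKM + 1 of 5.16, SE 0.19, limma adjusted p = 6.66e-08), and PC3 was lower than DU145 (-5.29, SE 0.16, limma adjusted p = 5.11e-08).

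Of the proteases that cut IGF-binding proteins and their inhibitors, 5 of 5 tested passed in PC3 against BPH-1 (3 higher, 2 lower), and 6 of 6 in DU145 against BPH-1 (4 higher, 2 lower). Of all genes, 67.6% and 62.7% passed in these comparisons. This group mixes proteases with inhibitors, so its counts give no direction for the proteases alone. STC2, which inhibits the protease PAPPA, was 21.5, 14.6, 19.5 and 13.0 FPKM in BPH-1, 150, 145, 136 and 125 FPKM in DU145 and 43.9, 44.0, 40.3 and 58.8 FPKM in PC3. It was 8.11-fold higher in DU145 than in BPH-1 (log2 fold change 2.97, SE 0.18, limma adjusted p = 9.85e-07) and 2.72-fold higher in PC3 (1.41, SE 0.18, limma adjusted p = 9.36e-05). STC2 did not overlap between any of the lines. Its relative STC1 was 0.148, 0.584, 0.134 and 0.109 FPKM in BPH-1 and 1.05, 5.12, 0.995 and 4.11 FPKM in DU145, where replicates 2 and 4 were above 1 and 3. STC1 was 11.6-fold higher in DU145 than in BPH-1 (1.45, SE 0.36, limma adjusted p = 0.00546). This fold was 19.0 without DU145 replicates 1 and 3, 4.2 without 2 and 4 and 21.6 without BPH-1 replicate 2. The serine protease HTRA1 was 3.93-fold higher in PC3 than in BPH-1, at 21.5 ± 1.68 FPKM against 5.47 ± 1.39 FPKM (SD, n = 4 each; log2 fold change 1.82, SE 0.16, limma adjusted p = 8.26e-06). In DU145 HTRA1 was 10.7 ± 3.80 FPKM and overlapped BPH-1 (0.82, SE 0.27, limma adjusted p = 0.022). This call was lost with the GC trend divided out (0.17, limma adjusted p = 0.465) and with libraries brought to the same sum (0.60, limma adjusted p = 0.0723). Without these corrections, the call was lost in 4 of 8 fits that left out 1 library. The same held without DU145 replicates 1 and 3 (0.48) or 3 and 4 (0.55). STC2 in PC3 was 0.92 with the GC trend divided out (limma adjusted p = 0.000867).

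The IGF2 mRNA-binding proteins regulate IGF2 and other transcripts. IGF2BP1 was 2.92, 3.25, 1.97 and 3.38 FPKM in DU145, against 0.310 FPKM or less in every library of the other lines, and was 19.5-fold higher in DU145 than in BPH-1 (log2 fold change of FPKM + 1 of 1.75, SE 0.15, limma adjusted p = 6.79e-06). Without BPH-1 replicate 2, at 0.310 FPKM, the fold was 30.8. IGF2BP3 was 5.55 ± 0.343 FPKM in BPH-1, 1.35 ± 1.12 FPKM in DU145 and 1.35 ± 0.747 FPKM in PC3 (SD, n = 4 each). It was lower than in BPH-1 in PC3 (-1.54, SE 0.23, limma adjusted p = 0.000258) and in DU145 (-1.60, SE 0.31, limma adjusted p = 0.00128). The DU145 fold of IGF2BP3 was 4.1, but 2.42 without DU145 replicates 1 and 3 and 13.4 without 2 and 4. IGF2BP2 was 34.7 ± 1.49 FPKM in BPH-1, 16.8 ± 6.91 FPKM in DU145 and 29.7 ± 6.45 FPKM in PC3 (SD, n = 4 each). The fall in DU145 passed (-1.09, SE 0.26, limma adjusted p = 0.0047). It was 2.07-fold with all libraries and 3.12-fold without DU145 replicates 2 and 4.

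Of the adaptors and negative regulators at the receptor, 11 of 12 passed in PC3 against BPH-1 (4 higher, 7 lower) and 7 of 12 in DU145 (3 higher, 4 lower). The shares of all genes that passed were 67.6% and 62.7%. GRB10, an adaptor that restrains IGF1R and INSR signalling, was 0.286, 0.314, 0.444 and 0.378 FPKM in BPH-1. It was 7.64, 6.91, 7.55 and 7.88 FPKM in DU145 and 5.25, 5.52, 6.19 and 5.26 FPKM in PC3. Both PCa lines were far above BPH-1, by 21.1-fold in DU145 (log2 fold change 2.65, SE 0.13, limma adjusted p = 3.61e-07) and by 15.6-fold in PC3 (2.27, SE 0.10, limma adjusted p = 1.46e-07). SHC1, the adaptor to the RAS branch, was 17.5 ± 1.58 FPKM in BPH-1, 85.2 ± 30.1 FPKM in DU145 and 8.89 ± 1.17 FPKM in PC3 (SD, n = 4 each). It was 4.87-fold higher in DU145 than in BPH-1 (2.15, SE 0.25, limma adjusted p = 5.09e-05) and 1.97-fold lower in PC3 (-0.91, SE 0.12, limma adjusted p = 0.000123). SHC1 was 1.38 in DU145 and -1.48 in PC3 with the GC trend divided out (limma adjusted p = 1.49e-05 and 6.55e-06). SHC1 overlaps PYGO2 on the same strand, which had a mean of 9.81 FPKM in BPH-1, 14.6 FPKM in DU145 and 10.7 FPKM in PC3. The phosphatase PTPN11 was lower in both PCa lines than in BPH-1, by 3.09-fold in PC3 and 5.72-fold in DU145 (limma adjusted p = 0.00334 and 0.00196). The DU145 fold was 3.28 without DU145 replicates 1 and 3 and 22.5 without 2 and 4. PTPN11 overlaps RPL6 on the other strand, which had a mean of 98.3 FPKM in BPH-1, 46.5 FPKM in DU145 and 71.1 FPKM in PC3, so reads of the 2 genes may not have been separated.

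In the PI3K and AKT branch, 10 of 14 genes passed in PC3 against BPH-1 (3 higher, 7 lower) and 9 of 14 in DU145 (2 higher, 7 lower). The shares of all genes that passed were 67.6% and 62.7%. INPP4B, a lipid phosphatase that restrains this branch, was 5.12 ± 0.887 FPKM in BPH-1, 0.280 ± 0.231 FPKM in DU145 and 0.155 ± 0.0795 FPKM in PC3 (SD, n = 4 each). It was 33.1-fold lower in PC3 (-2.40, SE 0.12, limma adjusted p = 3.40e-07) and 18.3-fold lower in DU145 (-2.27, SE 0.17, limma adjusted p = 4.15e-06) than in BPH-1. The DU145 fold was 10.8 without DU145 replicates 1 and 3 and 61.2 without 2 and 4. The regulatory subunit PIK3R2 ranged from 0.200 to 11.4 FPKM within BPH-1 and from 0.477 to 14.6 FPKM within PC3, and it overlaps AC007192.1 on the same strand, so its values are uncertain.

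Among mTOR and FOXO outputs, 10 of 13 passed in PC3 against BPH-1 (4 higher, 6 lower) and 9 of 13 in DU145 (3 higher, 6 lower). The shares of all genes that passed were 67.6% and 62.7%. RICTOR, the defining subunit of mTORC2, was 5.50 ± 1.05 FPKM in BPH-1, 0.471 ± 0.371 FPKM in DU145 and 0.572 ± 0.374 FPKM in PC3 (SD, n = 4 each). It was 9.63-fold lower in PC3 (log2 fold change -2.07, SE 0.19, limma adjusted p = 1.44e-05) and 11.7-fold lower in DU145 (-2.16, SE 0.21, limma adjusted p = 1.70e-05) than in BPH-1. These log2 differences were -1.03 and -1.09 with the GC trend divided out (limma adjusted p = 0.000245 and 0.000264). The DU145 fold of RICTOR was 7.07 without DU145 replicates 1 and 3 and 33.5 without 2 and 4. RICTOR overlaps OSMR on the other strand, which had a mean of 18.2 FPKM in BPH-1, 63.0 FPKM in DU145 and 7.08 FPKM in PC3. The kinase genes RPS6KB1 and GSK3B were lower than in BPH-1 too, RPS6KB1 by 2.90-fold in PC3 and 4.34-fold in DU145, and GSK3B by 1.78-fold and 3.61-fold (limma adjusted p between 0.000339 and 0.00331 for these 4). The DU145 fold of RPS6KB1 was 2.79 without DU145 replicates 1 and 3 and 9.68 without 2 and 4, and that of GSK3B was 6.22 without 2 and 4. RPS6KB1 in PC3 was not called with the GC trend divided out (-0.33, limma adjusted p = 0.0795), when it was -0.61 in DU145 (limma adjusted p = 0.00512) and GSK3B was -0.29 in PC3 and -1.11 in DU145 (limma adjusted p = 0.0376 and 6.52e-05).

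In the RAS and MAPK branch, 8 of 10 passed in PC3 against BPH-1 (2 higher, 6 lower), 8 of 10 in DU145 against BPH-1 (3 higher, 5 lower) and 3 of 10 in PC3 against DU145. The shares of all genes that passed were 67.6%, 62.7% and 48.3%. NRAS was 47.6, 41.2, 43.4 and 39.3 FPKM in BPH-1. It was 7.24, 18.4, 3.53 and 13.2 FPKM in DU145 and 7.53, 6.02, 3.99 and 1.87 FPKM in PC3. NRAS was 8.84-fold lower in PC3 than in BPH-1 (log2 fold change -3.02, SE 0.29, limma adjusted p = 1.73e-05) and 4.05-fold lower in DU145 (-2.12, SE 0.38, limma adjusted p = 0.000894). The exchange factor SOS1 was 5.59-fold lower in PC3 (-1.95, SE 0.24, limma adjusted p = 7.00e-05) and 8.95-fold lower in DU145 (-2.32, SE 0.27, limma adjusted p = 4.82e-05). NRAS, with the GC trend divided out, was -1.50 in PC3 (limma adjusted p = 1.85e-05) and was not called in DU145 (-0.33, limma adjusted p = 0.088). SOS1 was then -0.78 in PC3 and -1.18 in DU145 (limma adjusted p = 0.00271 and 0.000652). The DU145 fold of NRAS was 7.97 without DU145 replicates 2 and 4, and that of SOS1 was 5.24 without 1 and 3 and 30.7 without 2 and 4. The GC content was 38.4% for NRAS and 38.6% for SOS1, above that of 5.02% of the genes tested or fewer. In DU145, RICTOR, RPS6KB1, GSK3B, SOS1, NRAS and PTPN11 were all lower in replicates 1 and 3 than in 2 and 4. In PC3, replicate 4 was the lowest library for the same 6 genes and for PIK3R2.

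**Figure D4:**
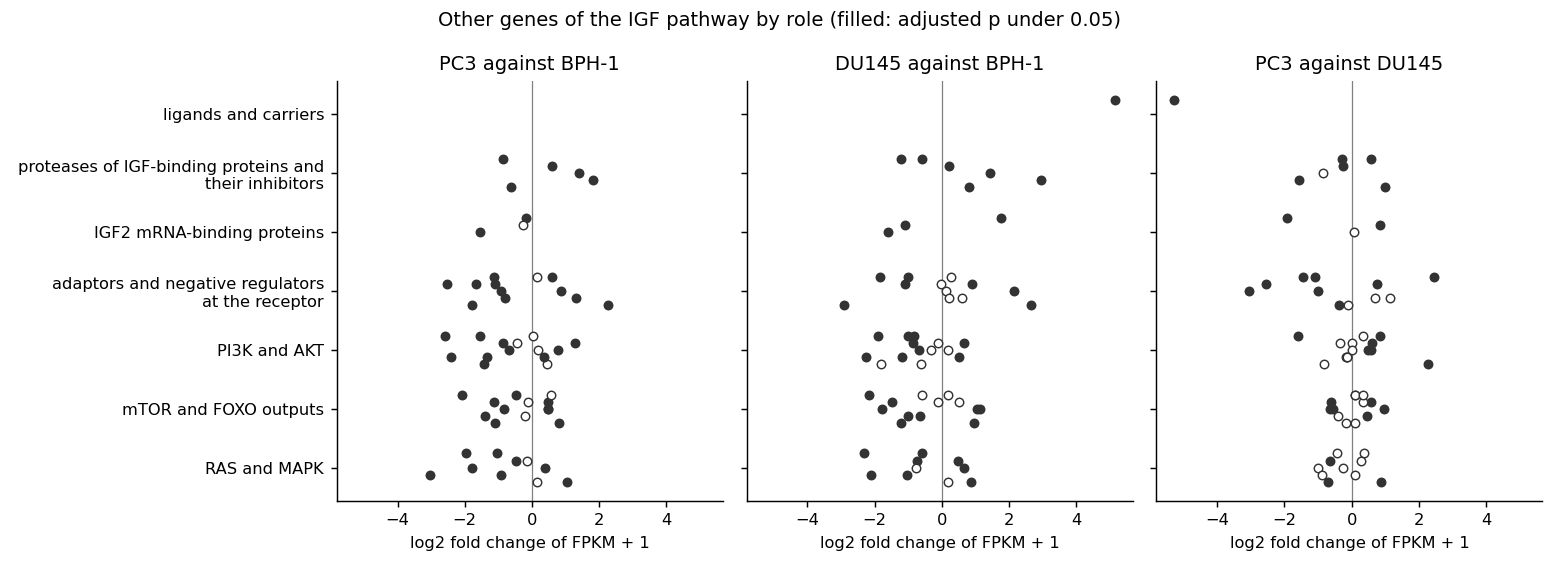
Log2 fold change of FPKM + 1 of the pathway genes tested, by role, in the 3 comparisons, each point 1 gene, filled where the limma adjusted p was under 0.05. Most roles hold filled points on both sides of 0, and the points farthest out are IGFBPL1 in both comparisons with DU145 (5.16 and -5.29).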

How the data were processed

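The authors deposited 1 table of normalized values for 58302 genes in 12 libraries with GRCh38 coordinates. The submitters' notes name CASAVA 1.8, HISAT2 2.1.0 and edgeR; the counting program and the use of strand are not given in the sources used here. The header names no unit. The deposited numbers behaved as FPKM: with gene length as the sum of distinct exons of GENCODE 29, 92.3% to 94.0% of low values per library were whole reads (tolerance 0.02), against 17.3% to 21.8% with merged exons, and depth followed from the steps. The lengths of IGF1R, IGF2R, IGF2 and IGFBP6 were read from their own steps. This sets their reads, not their FPKM.

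Because the table held FPKM, the count model was not used. limma 3.58.1 (R 4.3.3, intensity trend) was fitted to log2(FPKM + 1) of the 2 lines compared, two-sided, with Benjamini-Hochberg adjustment over all genes tested and calls at an adjusted p under 0.05. A log2 fold change on this scale understates the change of low genes, so ratios of mean FPKM stand beside it. A gene entered if 4 libraries held 10 or more reads (scaled to median depth) and all libraries together 15; 263 genes had no length. Limits at 3 reads cover counting error only. On simulated data the fit was tested with known changes. There, all genes had the same relative spread beyond counting error and few were changed, unlike in these libraries. The simulation therefore does not show how the fit behaves on these data. Python 3.11.15 with numpy 2.4.6, pandas 2.3.3, scipy 1.17.1 and matplotlib 3.10.9 did the rest.

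The 10 genes, the pathway and marker lists and the tests were chosen with earlier results of these data known. Genes named were the 10, their overlapping genes, the markers, pathway genes with at most 3 reads everywhere, the 3 pathway genes of each role with the largest called change in any comparison, and the 2 closest in pattern to each of 3 genes. A few genes that this rule names are not reported here. POLR2B, RPL6 and AC007192.1 are named for their overlap. Alternatives were no filter and a stricter one, another pseudocount (0.1), 3 library scalings, a GC correction (a 5-degree spline fitted to genes of 50 reads or more, which also removes real differences that follow GC content), voom on recovered reads, 1 fit over all lines, the replicate number as a block, a fold threshold, exact permutation tests and leaving out each library. Leaving out pairs of DU145 libraries was added after seeing the data.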

Additional observations from a re-analysis of the deposited data

Results flagged for a closer look

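BPH-1 replicate 2 lay far from the other BPH-1 libraries for 2 genes. For IGFBP3 it had 59.6 FPKM, and for IGFBP4 57.8 FPKM; in each case the gap to the nearest library was 0.852 of the whole range of the 4, past Dixon's 95% limit for 4 values. These were 2 of 29 groups of 4 libraries checked, where chance gives about 1 in 20.

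Between the 2 PCa lines, 8 of the 9 genes tested differed by limma's test of PC3 against DU145. This comparison is the difference between their contrasts with BPH-1. Over all 16422 genes tested, 48.3% passed it, and IGFBP7 was not tested. The log2 fold change of FPKM + 1 was -2.02 for IGF1R, 0.95 for INSR and -0.29 for IGF2. Among the binding proteins it was -1.76 for IGFBP2, -1.16 for IGFBP3, 2.87 for IGFBP4, 0.42 for IGFBP5 and 1.38 for IGFBP6. Libraries of the PCa lines did not overlap for any of these 8 genes, as for 46.5% of all genes tested.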

How the results depend on the processing

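Depth limited IGFBP5 in DU145, IGFBP7 in DU145 and PC3 and IGFBP2 in PC3, which rest on few reads or none. An absolute log2 fold change over 1 in addition left 5, 3 and 5 of the 10 genes and 25, 26 and 12 pathway genes. Such counts run PC3 to BPH-1, then DU145 to BPH-1, then PC3 to DU145, here and in what follows. The share of all genes meeting both criteria is not given here. In PC3 against DU145, 31 pathway genes passed, 20 without DU145 replicates 3 and 4, 21 without 1 and 2, 38 without 1 and 3 and 35 without 2 and 4. Calls over all genes moved in these fits too, as given above. Leaving out 1 library gave 9 to 10, 6 to 8 and 8 to 8 of the 10 genes and 44 to 46, 34 to 46 and 23 to 30 pathway genes. The sign turned for INSR in DU145 against BPH-1, never past the threshold, with the same sum (-0.11), the GC correction (-0.33), without BPH-1 replicate 1 (-0.04) or 3 (-0.01), without DU145 replicate 4 (-0.08) and without DU145 replicates 2 and 4 (-0.14). With 1 library left out it ranged from -0.08 to 0.16. It turned for IGFBP6 in DU145 against BPH-1 without DU145 replicates 2 and 4 (0.03). It turned for IGF2R in PC3 against DU145 with median-of-ratios (0.03) and upper-quartile scaling (0.06), the GC correction (0.11), without DU145 replicate 1 (0.03) and without DU145 replicates 1 and 2 (0.06), and ranged from -0.15 to 0.03 with 1 library left out. The cause was not tested. Of the 598 values of the 10 genes under alternatives, 570 kept their direction and side of the threshold. The exact permutation tests entered this count with unadjusted p-values. With adjustment, those tests called 0 genes in PC3 against DU145.

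Scaling moved the median log2 difference of all genes in PC3 against BPH-1 from -0.13 to -0.28 (same sum) and 0.10 (upper quartile), and in DU145 against BPH-1 from -0.03 to -0.16 and 0.13. The share of calls that were higher went from 40.2% to 30.2% and 55.2%, and from 48.4% to 38.6% and 57.2%. With the GC trend divided out this share was 33.5% in PC3 and 40.2% in DU145, both against BPH-1. In PC3 against DU145, 7937 genes passed, 5265 with the stricter filter, and 0 by exact permutation tests with adjustment (7642 at an unadjusted p under 0.05). The same exact tests with adjustment called 10566 genes in PC3 against BPH-1 and 10121 in DU145 against BPH-1. With 4 against 4, the smallest exact p is 0.0286.

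Replicate numbers did not pair the libraries: same-numbered deviations correlated between -0.655 and 0.515. With the number as a block, 10, 6 and 8 of the 10 genes passed, IGFBP5 in PC3 against BPH-1 being added (0.22, limma adjusted p = 0.0272), and 46, 41 and 21 pathway genes. The calls of HTRA1 in DU145 against BPH-1 and of IGF2BP2, GRB10, PIK3R2 and GSK3B in PC3 against DU145 were lost. Over all genes in PC3 against DU145, 6747 passed with the block.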
